A study of Mus musculus with 25 samples.

Results

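The cytosolic ribosomal protein genes were examined in the salivary gland of the C57BL/6.NOD-Aec1Aec2 mouse (males), in which the Aec1 (Idd3, chromosome 3) and Aec2 (Idd5, chromosome 1) intervals of the NOD mouse are carried on the C57BL/6 background and which develop a disease resembling Sjögren's syndrome. Glands were taken from 5 mice each at 5 ages, every 4 weeks from 4 weeks to 20 weeks, and RNA from each of the 25 mice was hybridized to an Affymetrix whole-genome mouse expression array of its own. All 25 mice carry both NOD intervals and no C57BL/6 array was analysed here, so age and disease stage cannot be told apart. The glands were whole tissue (submandibular, sublingual and parotid, without lymph nodes), and in such bulk RNA fewer cells of a type and less RNA per cell cannot be told apart. The members were all genes with an Rpl or Rps symbol in the probe annotation, leaving out the Rps6k kinases and pseudogenes and counting only probe sets assigned to a single symbol: 50 of 18194 genes met this rule. They comprised 20 proteins of the large subunit, 21 of the small subunit, 2 of the stalk (Rplp0 and Rplp2), 6 paralogues (Rpl22l1, Rpl39l, Rpl3l, Rpl7l1, Rps27l and Rps4l) and Rps19bp1, which binds a ribosomal protein but is not one. A further 31 symbols of the same type, among them Rpl5, Rpl10, Rpl23 and Rplp1, appeared only on probe sets assigned to several genes and were not analysed here.

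Ribosomal proteins assemble with ribosomal RNA into the small subunit, which decodes the messenger RNA, and the large subunit, which forms the peptide bond. Their messenger RNAs typically start with a C followed by a run of pyrimidines, the 5′ terminal oligopyrimidine (TOP) tract, through which mTOR and Larp1 control their translation as a group. Acinar cells of the salivary gland synthesize secretory protein at a high rate on ribosomes bound to the endoplasmic reticulum, and several ribosomal proteins have further roles, such as the binding of Mdm2 by Rpl11 or the signal-dependent phosphorylation of Rps6.

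The annotated promoters were inspected for what the members share apart from their names. RefSeq windows (GRCm38.p6, 250 bases before to 50 bases from the annotated start) were found for 44 of the 50 members; Rpl7, Rpl8, Rps14, Rps20, Rps29 and Rps4l had none. The 30 bases shown here, 6 before the start and 24 from it on, are those of the 3 members that passed a test against 4 weeks (Rps6, Rpl7l1 and Rps25) and of 4 others whose windows show the searched letters near the start. Each is written 5′ to 3′ along the transcribed strand. Capitals mark CTTTC, or the same letters with 1 or 2 further T in the middle, which resembles a TOP tract. They also mark CCGGAA, the core recognized by ETS factors.
Rps6, chr4:86857344-86857373, minus strand: tcgggcctCTTTTTCgtgacgcctcccagg
Rpl7l1, chr17:46782633-46782662, minus strand: cgcaagcgcagtagctgaagcaCCGGAAag
Rps25, chr9:44407708-44407737, plus strand: catcttagcgaggctgctgtggtctacacg
Rpl38, chr11:114668574-114668603, plus strand: ctcgttCTTTCcccgttctcttcggttctc
Rplp2, chr7:141447645-141447674, plus strand: gtcttcCTTTCgccgccggacgccgccgag
Rpl27a, chr7:109519189-109519218, plus strand: agctcctccCTTTTCcCTTTCtgccaccgc
Rpl11, chr4:136053370-136053399, minus strand: aaggccacggggCCGGAAgtctccctctct

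Between 20 bases before and 30 bases after the start, the pyrimidine tract was found on the transcribed strand in 15 of the 44 members (34.1%) and in 9.75% of 27025 genes with a window. On the opposite strand it was found in 5 members (11.4%) and in 9.4% of all genes. CCGGAA was found on either strand of the whole window of 300 bases in 28 members (63.6%) and in 16.7% of all genes. TATAAA lay on the transcribed strand within the 50 bases before the start in 1 member, Rpl22l1, and in 3.15% of all genes. The motifs were chosen after the windows had been seen, and the tract and the reverse of CCGGAA can overlap. Rps6 carried both the tract and CCGGAA, and Rpl7l1 and Rps25 carried CCGGAA without the tract.

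Few members were called as changed with age when all arrays were fitted. Of the 50 members, 46 had at least 1 probe set whose mean lay above 3.266 (log2), the median over all probe sets and the level counted here as expressed; Rpl12, Rpl39l, Rpl3l and Rps16 did not. In the limma fit across all 18194 genes with Benjamini-Hochberg adjustment, no member rose or fell between 4 and 8 weeks, where 1.48% of all genes rose and 0.78% fell, and 2 members had an unadjusted p under 0.05. At 12 weeks 2 members rose (Rpl7l1 and Rps6) and none fell, against 5.66% and 1.36% of all genes. At 16 weeks 2 rose (Rps25 and Rps6) and none fell, against 1.71% and 1.68%. At 20 weeks 1 rose (Rps6) and none fell, against 1.14% and 1.52%. The called members read low for this group: mean log2 signals at 4 weeks were 4.56 (Rps25), 5.30 (Rps6) and 7.33 (Rpl7l1). Most other expressed members read higher, up to 14.52 (Rplp0). Rpl12 and Rps16, also proteins of the subunits, read 2.34 and 2.07. Whether probe sets that read this low report the main RNA of their gene was not tested. A low reading therefore does not show that the RNA was scarce, and the calls hold for the probe sets used. The members with an unadjusted p under 0.05 in either direction numbered 6 at 12 weeks, 7 at 16 weeks and 6 at 20 weeks. Of all 18194 genes, 2540 at 8 weeks, 3773 at 12 weeks, 2624 at 16 weeks and 2259 at 20 weeks had such a p. The members therefore did not exceed the background in these counts. Over the 5 ages together, the F-test called 2 of 50 members (Rps6 and Rpl37a) where it called 4.66% of all genes, and 1 member (Rps6) had a B-statistic above 1.5 for a polynomial of age where 1.92% of all genes had one. These shares lie near the background. Between neighbouring ages no member was called in the limma fit. The shares of all genes called were 0.0055% for 12 against 8 weeks, 0.0055% for 16 against 12 weeks and 0.0275% for 20 against 16 weeks. An unadjusted p under 0.05 was found for 1, 1 and 3 members, and for 703, 1395 and 1313 of all 18194 genes. The 4 comparisons with 4 weeks share the same 5 control mice.

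The array of mouse 3 at 20 weeks stood apart and touches these counts. Its median correlation with the other arrays of its age was 0.887, whereas that of every other array was at least 0.9735. The difference between 3′ and 5′ control probe sets, a sign of RNA degradation or short labelled product, was 5.36 for actin (1.853 to 3.751 on the other 24 arrays) and 3.87 for Gapdh (0.046 to 1.683). Without this array, the limma fit called 3 members as rising at 12 weeks (Rpl11, Rpl7l1 and Rps6), 3 at 16 weeks (Rps25, Rps6 and Rps9) and 4 at 20 weeks (Rpl37a, Rpl7l1, Rps24 and Rps6), none as falling, and 6 over the 5 ages, where 12.1% of all genes were called. The share of all genes called as rising grew as well, to 13.3% at 12 weeks, 4.09% at 16 weeks and 6.24% at 20 weeks. At 20 weeks the fold change of 13 of the 46 expressed members turned its sign without this array, none of them called in either fit; Rplp0 went from -0.31 to 0.07, Rpl7 from -0.17 to 0.07 and Rps3 from -0.02 to 0.22. At the 3 other ages 0 members turned.

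**Figure D1:**
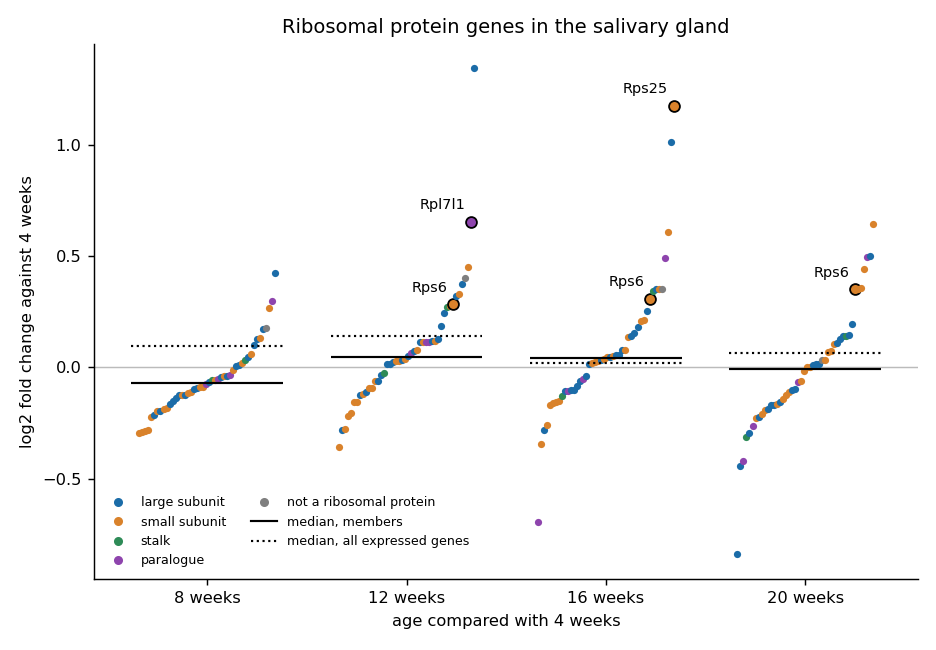
Log2 fold change against 4 weeks (vertical axis) of each of the 46 expressed members at each later age, sorted within each age and coloured by subunit; outlined, named points passed the limma test, solid lines are the median of the members and dotted lines the median of all expressed genes. Nearly all points lie within 0.5 of 0, and the 2 medians differ by no more than 0.17 at any age.

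The differences from 4 weeks were small in size. The median log2 fold change of the 46 expressed members was -0.07 at 8 weeks, 0.05 at 12 weeks, 0.04 at 16 weeks and -0.01 at 20 weeks, beside medians of 0.10, 0.14, 0.02 and 0.06 for the 11696 expressed genes. Quantile normalization of the arrays lowered the median of all expressed genes by over 0.1 at 8 and at 12 weeks, to -0.03 and -0.01, so that the values are better read relative to that median. Relative to it, the median of the members was -0.17, -0.09, 0.02 and -0.07 at the later ages in order, and -0.11, -0.06, 0.02 and -0.07 after quantile normalization. The same step moved the share of rises among all calls at 8 weeks from 65.5% to 46.7%, at 12 weeks from 80.6% to 56.1%, and for the members at 12 weeks from 2 rises and 0 falls to 0 rises and 3 falls (Rps10, Rps18 and Rps26).

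The 95% interval of the fold change lay entirely within 2-fold of no change for 45 of the 46 expressed members at 8 weeks (97.8%), 43 at 12 weeks (93.5%), 42 at 16 weeks (91.3%) and 41 at 20 weeks (89.1%). For all expressed genes these shares were 74.6%, 69.4%, 75.3% and 77.1%. The median SE was 0.159 for the expressed members and 0.198 for all expressed genes. The members were not compared with genes of like signal level or number of probe sets. Within the narrower bound of 1.5-fold lay 35, 30, 29 and 33 members. The median range of the 5 age means was 0.317 for the expressed members and 0.476 for all expressed genes, with a median SD among mice of 1 age of 0.257 and 0.322. In both sets the median range was larger than the median SD. A range of 5 means and an SD of single mice are unlike measures, so these values do not show how much age adds. The 2 subunits gave similar medians, although the difference between them was not tested: the median fold change of the 19 expressed large subunit members was -0.06, 0.05, 0.05 and -0.10, and that of the 20 expressed small subunit members -0.11, -0.02, 0.04 and 0.00, at 8, 12, 16 and 20 weeks.

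The direction of the small differences was not the same at every age and depended on the scaling. At 8 weeks 14 expressed members lay above and 32 below their 4-week mean; the split was 30 to 16 at 12 weeks, 29 to 17 at 16 weeks and even, 23 to 23, at 20 weeks. In percent, 30.4, 65.2, 63 and 50 of the members lay above, beside 60.5, 62, 52.6 and 60.2 of all expressed genes. After quantile normalization 6, 16, 26 and 15 members lay above, beside 43.1%, 48.7%, 49.5% and 50.5% of all expressed genes, and the median of the members at 12 weeks was -0.07. The highest age mean fell at 12 weeks for 17 expressed members, at 16 weeks for 12, at 20 weeks for 10, at 4 weeks for 7 and at 8 weeks for 0. On each array, the median over the expressed members of the difference from the 4-week mean was 0.00 ± 0.15 at 4 weeks, -0.07 ± 0.12 at 8 weeks, 0.04 ± 0.04 at 12 weeks, 0.07 ± 0.24 at 16 weeks and -0.03 ± 0.30 at 20 weeks (mean ± SD, n = 5 mice). The 5 arrays of 12 weeks lay closest together, between -0.01 and 0.09. The widest ages held mouse 2 at 16 weeks at -0.36 and mouse 3 at 20 weeks at -0.53.

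**Figure D2:**
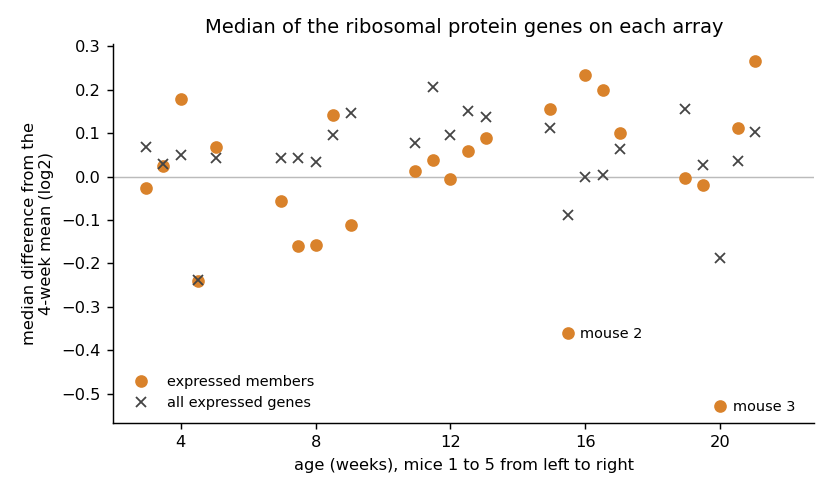
Median difference from the 4-week mean (log2, vertical axis) on each of the 25 arrays, ordered by age and mouse, for the 46 expressed ribosomal protein genes (circles) and for all expressed genes (crosses). The circles of the 5 ages overlap, and the lowest are mouse 2 at 16 weeks (-0.36) and mouse 3 at 20 weeks (-0.53).

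Rps6, the small subunit protein that is phosphorylated when growth signalling is active, rose at 3 ages. Its log2 signal was 5.40, 5.26, 5.38, 5.10 and 5.37 in mice 1 to 5 at 4 weeks and 5.46, 5.44, 5.27, 5.53 and 5.48 at 8 weeks. It was 5.52, 5.60, 5.47, 5.71 and 5.62 at 12 weeks. All 5 mice of 12 weeks lay above all 5 of 4 weeks, whereas those of 8 weeks overlapped them. At 16 weeks the values were 5.57, 5.59, 5.63, 5.71 and 5.55, and at 20 weeks 5.54, 5.50, 5.78, 5.63 and 5.81. Both ages again lay wholly above 4 weeks, and the highest values at 20 weeks were those of mice 3 and 5, the arrays with the largest actin 3′ to 5′ differences (5.36 and 3.75). The rise was 0.28 at 12 weeks (SE 0.069, adjusted p = 0.0157 in limma), 0.31 at 16 weeks (adjusted p = 0.0137) and 0.35 at 20 weeks (adjusted p = 0.00591), and 0.13 at 8 weeks (adjusted p = 0.404). Without mouse 3 at 20 weeks the rise at 20 weeks was 0.32 (limma adjusted p = 0.00757). Rps6 also had the smallest F-test p of the members (adjusted p = 0.0142 in limma) and a B-statistic of 3.42 for the linear term.

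The value of Rps6 is the mean of 2 probe sets that behaved differently. Probe set 1416142_at had means of 7.10, 7.45, 7.68, 7.75 and 7.65 at the 5 ages, with rises of 0.58, 0.65 and 0.55 at 12, 16 and 20 weeks (SE 0.129). Probe set 1453466_at stayed between 3.42 and 3.65, just above the level counted as expressed. The averaged value therefore shows a smaller change than the brighter probe set. After quantile normalization the fold changes of Rps6 were 0.13, 0.26 and 0.30 at 12, 16 and 20 weeks with limma adjusted p of 0.582, 0.115 and 0.0608, and relative to the median of all expressed genes 0.14, 0.26 and 0.30, compared with 0.14, 0.29 and 0.29 in the deposited values. The call at 12 weeks was also lost without mouse 4 of 4 weeks (adjusted p = 0.0607 in limma) or mouse 4 of 12 weeks (adjusted p = 0.0524 in limma).

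Rpl7l1, a paralogue of the large subunit protein Rpl7, rose at 12 weeks. Its log2 signal was 7.63, 7.24, 7.44, 6.93 and 7.41 at 4 weeks and 7.36, 7.17, 7.74, 7.88 and 7.98 at 8 weeks. It was 7.70, 8.13, 7.97, 8.07 and 8.05 at 12 weeks. The 12-week mice all lay above the 4-week mice, and 3 of the 8-week mice did too. At 16 weeks it was 7.99, 7.26, 8.03, 8.01 and 7.82, and at 20 weeks 8.00, 7.67, 7.41, 7.85 and 8.19. Mouse 2 at 16 weeks and mouse 3 at 20 weeks lay within the 4-week range and the other 8 mice of these ages above it. The fold change was 0.65 at 12 weeks (SE 0.177, adjusted p = 0.028 in limma), 0.49 at 16 weeks (adjusted p = 0.153) and 0.50 at 20 weeks (adjusted p = 0.173). Without mouse 3 at 20 weeks the latter was 0.60 (limma adjusted p = 0.0402). Both expressed probe sets moved in the same direction: 1426386_at went from 6.50 to 7.31 and 1452049_at from 8.16 to 8.66 between 4 and 12 weeks. The call at 12 weeks was lost after quantile normalization (0.28, limma adjusted p = 0.309), with the brightest probe set alone (0.50, limma adjusted p = 0.0718) and without any of mice 2 and 4 of 4 weeks or mice 2, 4 and 5 of 12 weeks (0.55 to 0.63, limma adjusted p = 0.059 to 0.102).

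The 12-week arrays also differed from the 4-week arrays in a sign of RNA quality. The actin 3′ to 5′ difference was 2.784 to 3.024 at 12 weeks and 2.182 to 2.666 at 4 weeks, without overlap, whereas the Gapdh difference was 0.499 to 0.831 and 0.488 to 1.683. Its part in the rises of Rps6 and Rpl7l1 was not tested.

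Rps25, a small subunit protein needed for initiation on some viral internal ribosome entry sites, rose at 16 weeks, at a signal low for this group. It was measured by a single probe set, 1430978_at, with values of 4.67, 4.06, 4.84, 4.85 and 4.40 at 4 weeks and 4.50, 4.48, 4.88, 5.46 and 4.83 at 8 weeks. The values were 5.24, 5.13, 4.42, 5.07 and 5.21 at 12 weeks, 5.82, 5.38, 6.38, 6.24 and 4.86 at 16 weeks, and 4.74, 4.85, 5.63, 4.96 and 5.85 at 20 weeks. All 5 mice of 16 weeks lay above the 4-week mice, the lowest by a narrow margin. The fold change was 1.18 (SE 0.278, adjusted p = 0.019 in limma) at 16 weeks and 0.64 (adjusted p = 0.313) at 20 weeks. The call at 16 weeks was lost without mouse 2 of 4 weeks or mouse 3 or 4 of 16 weeks (1.02 to 1.05, limma adjusted p = 0.0612 to 0.0682). Mice 3 and 4 of 16 weeks were also those with the highest lymphocyte markers: the mean log2 signal over 11 such genes, 7 of them expressed, was 6.538 and 6.535 in these mice, 3.561 to 3.801 in the other 3 mice of 16 weeks and 3.409 to 4.987 at 4 weeks. The actin 3′ to 5′ difference was 3.05, 3.68, 3.14 and 3.21 in mice 1 to 4 of 16 weeks, above all 4-week arrays, and 2.33 in mouse 5, which had the lowest Rps25 of that age. At 20 weeks Rps25 was highest in mice 3 and 5, with actin differences of 5.36 and 3.75. The Gapdh differences of 16 weeks (0.254 to 1.212) overlapped those of 4 weeks. The part of lymphocytes and of RNA quality in the rise of Rps25 was not tested.

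**Figure D3:**
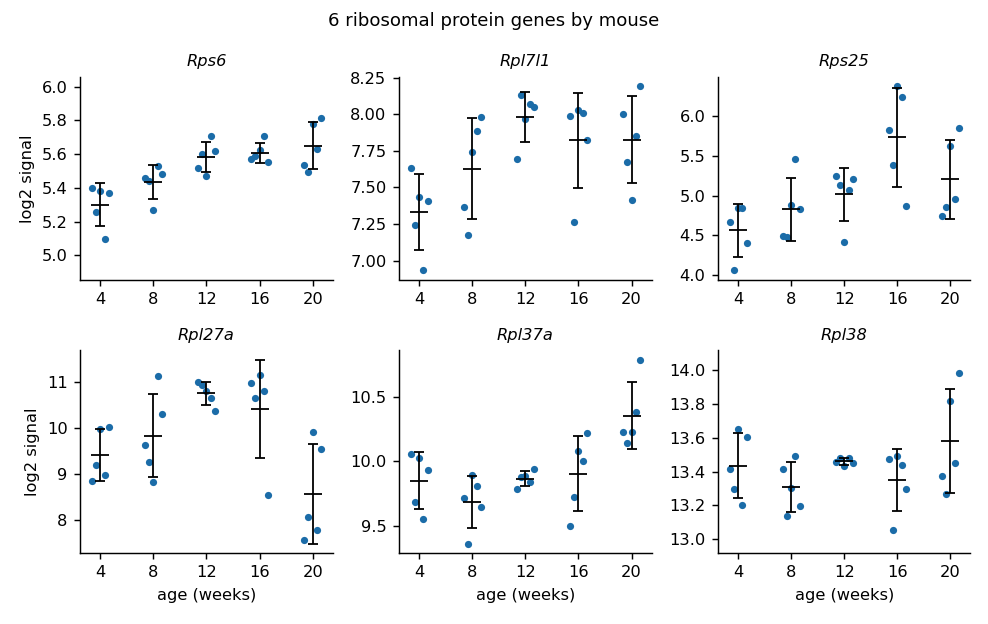
Log2 signal (vertical axes, with separate scales) of Rps6, Rpl7l1, Rps25, Rpl27a, Rpl37a and Rpl38 in each of the 25 mice by age (horizontal axes); points are mice 1 to 5 from left to right and bars are the mean ± SD of 5 mice. Rps6 lies above the 4-week mice in all mice from 12 weeks on, while the age means of Rpl38 stay between 13.31 and 13.58.

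Rpl37a, a large subunit protein with a zinc finger, was the other member called over the 5 ages (limma F-test, adjusted p = 0.0336). Its log2 signal was 10.05, 9.69, 10.03, 9.55 and 9.94 at 4 weeks, and 10.23, 10.14, 10.23, 10.38 and 10.79 at 20 weeks. The 20-week mice all lay above the 4-week mice, while the age means at 8, 12 and 16 weeks were 9.69, 9.87 and 9.91. The fold change at 20 weeks was 0.50 (SE 0.136, limma adjusted p = 0.0504), at the edge of the threshold, and 0.53 without mouse 3 (limma adjusted p = 0.0261). Of its 3 probe sets, 1416217_a_at rose from 12.18 to 13.40 (limma adjusted p = 0.035 among probe sets), whereas 1460543_x_at read 13.86 and 13.91 and 1416218_x_at 3.52 and 3.75. The change over age of Rpl37a thus rested on 1 of 3 probe sets.

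Rps24, of the small subunit, showed the same kind of disagreement among 6 probe sets. Its fold change at 20 weeks was 0.35 (SE 0.105, limma adjusted p = 0.0806) and 0.43 without mouse 3 (limma adjusted p = 0.0121). The 4 probe sets whose IDs mark shared probes lay 0.17 to 0.32 above 4 weeks at 20 weeks and between -0.24 and -0.20 at 8 weeks. Probe set 1455195_at instead went from 4.25 to 5.77 at 8 weeks and 5.51 at 20 weeks.

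**Figure D4:**
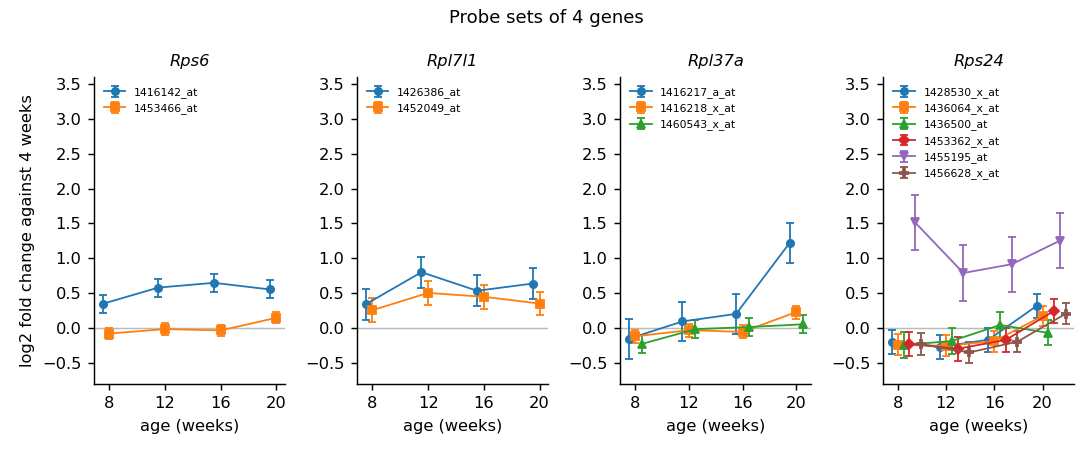
Log2 fold change against 4 weeks (vertical axis) of each expressed probe set of Rps6, Rpl7l1, Rpl37a and Rps24 by age; bars are the standard errors of the fit. Both probe sets of Rpl7l1 run in parallel, whereas 1 probe set each of Rps6 (1416142_at), Rpl37a (1416217_a_at) and Rps24 (1455195_at) departs from the rest.

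Rpl27a, a large subunit protein, had the widest spread of age means among the members, 2.18, and did not pass a test in the fit of all arrays. Its single expressed probe set read 8.86, 9.21, 9.99, 8.97 and 10.03 at 4 weeks and 9.64, 9.26, 8.83, 11.14 and 10.30 at 8 weeks. It read 11.01, 10.94, 10.80, 10.65 and 10.37 at 12 weeks. All 12-week mice lay above the 4-week mice. At 16 weeks the values were 10.98, 10.65, 11.15, 10.80 and 8.55, and at 20 weeks 7.56, 8.06, 9.92, 7.78 and 9.54. The 20-week mice overlapped the 4-week mice, and 3 of them lay below. The fold changes were 1.34 at 12 weeks (SE 0.512, limma adjusted p = 0.121), 1.01 at 16 weeks (limma adjusted p = 0.382) and -0.84 at 20 weeks (limma adjusted p = 0.603), the F-test gave an adjusted p of 0.0555 in limma, and 0.015 without mouse 3 of 20 weeks. The differences at 16 and 20 weeks were no larger than the SD among mice of these ages (1.06 and 1.08), while that at 12 weeks exceeded the SD at 4 and 12 weeks (0.56 and 0.25). At 4, 8, 16 and 20 weeks the arrays with high Rpl27a were those with a high actin 3′ to 5′ difference, which was not so among the 12-week arrays. At 4 weeks mice 3 and 5 had actin differences of 2.477 and 2.666 and the other 3 mice 2.182 to 2.302. All 12-week arrays had larger actin differences than the 4-week arrays, as they had higher Rpl27a. At 8 weeks mice 4 and 5 had actin differences of 3.10 and 2.90 and the other 3 mice 2.07 to 2.27. At 16 weeks mouse 5 had 2.33 and the others 3.05 to 3.68, and at 20 weeks mice 1, 2 and 4 had 1.85 to 2.43, below mice 3 and 5. The Gapdh difference followed this only in part. At 8 weeks it was highest in mouse 1 (1.578) and was 0.473 in mouse 5. At 4 weeks it was higher in mouse 4 (1.661), with Rpl27a at 8.97, than in mouse 3 (1.225). At 16 weeks it was lowest in mouse 5 (0.254), and at 20 weeks highest in mice 3 and 5 (3.866 and 1.114), as for actin. The part of RNA quality in the values of Rpl27a was not tested.

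Of the members with roles outside the ribosome, none besides Rps6 was called in the fit of all arrays. Rpl11, which binds Mdm2, had a fold change of 0.37 at 12 weeks (SE 0.184, limma adjusted p = 0.257), and 0.37 with an SE of 0.116 without mouse 3 of 20 weeks (limma adjusted p = 0.032). Rpl22, whose loss impairs T-cell development, had 0.32 at 12 weeks (limma adjusted p = 0.173). Its probe sets disagreed, with 0.85 for 1448398_s_at, 0.01 for 1416603_at and 0.09 for 1453118_s_at. Rpl13a, a part of the GAIT complex that represses translation of inflammatory transcripts, had a fold change of -0.30 at 20 weeks (limma adjusted p = 0.443). Rps3, which also takes part in DNA repair and NF-κB signalling, had 0.35 at 16 weeks (limma adjusted p = 0.558). Rpsa, also known as the laminin receptor, had -0.29 at 8 weeks (limma adjusted p = 0.696). Rpl38, needed in the mouse for translation of Hox transcripts, had 0.14 at 20 weeks (limma adjusted p = 0.748), the largest of its 4 values. Rps14 and Rps19, whose human counterparts are tied to inherited or acquired anaemia, lay between -0.19 and 0.21 at all ages, and Rps26, another gene of that anaemia, between -0.28 and -0.19. The stalk proteins, which recruit elongation factors, went apart in value: Rplp2 was 0.34 at 16 weeks (limma adjusted p = 0.32) and Rplp0 -0.13, both with an SE of at most 0.26.

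Paralogue and canonical gene were compared within each mouse, where a shift common to both genes of an array cancels. A shift that moves 1 gene more than the other does not cancel. The 2 genes could read far apart: at 4 weeks Rps27l read 12.50 and Rps27 3.33, and Rps4l 4.87 and Rps4x 13.37. There were 4 pairs with both genes expressed, and 16 exact permutation tests (2-sided, 5 against 5 mice, smallest possible p = 0.00794); 6 had an exact p under 0.05 and none passed after adjustment over the 16. Rpl7l1 minus Rpl7 was -5.27 ± 0.22 at 4 weeks and -4.73 ± 0.13 at 12 weeks (SD, n = 5), a difference of 0.54 (exact p = 0.00794, adjusted 0.0762). It was 0.41 at 16 weeks (exact p = 0.0159, adjusted 0.0762) and 0.66 at 20 weeks (exact p = 0.0159, adjusted 0.0762). The 20-week value was raised by mouse 3, which differed from the other 4 mice by -1.21 for Rpl7 and by -0.51 for Rpl7l1. Rpl22l1 minus Rpl22, a pair in which Rpl22 is known to repress its paralogue, had differences of the opposite sign, -0.31 at 16 weeks (exact p = 0.0238, adjusted 0.0762) and -0.28 at 20 weeks (exact p = 0.0476, adjusted 0.127). The probe sets of Rpl22 disagreed at 16 weeks: 1448398_s_at gave 0.80, whereas 1416603_at gave -0.06 and 1453118_s_at 0.02. Rpl22l1 itself was -0.05 at that age, so the 16-week difference rested mostly on 1 probe set of Rpl22. Rps27l minus Rps27 was 0.18 at 12 weeks (exact p = 0.0238, adjusted 0.0762), with Rps27 read by a probe set near 3.3, close to the level counted as expressed. Rps4l minus Rps4x ranged from -0.54 to 0.33 with exact p of 0.294 or more. Rpl39l and Rpl3l lay below the expressed level at every age (means of 2.61 to 2.76 and 2.90 to 3.02), whereas Rpl39 lay above it (7.28 to 7.67), and Rpl3 was not measured alone.

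The array of mouse 3 at 20 weeks read most members low, but not all. Of the 46 expressed members, 34 lay below the mean of the other 4 mice of 20 weeks and 12 above, and 30 lay below the lowest of the 4. The median difference was -0.50, beside -0.36 for all expressed genes. How many of all expressed genes lay below or outside the other 4 mice was not counted. The counts given here therefore do not set the members apart from the array as a whole. Rplp0 read 12.66 on this array and 14.59 ± 0.07 in the other 4 mice (SD), Rpl7 11.47 and 12.68 ± 0.05, and Rps14 11.59 and 12.95 ± 0.34. The largest deficit was that of Rpl19, named here after its values were seen, at 10.66 against 13.14 ± 0.19. In all, 11 members lay more than 1 unit below the other 4 mice. In the opposite direction Rpl27a read 9.92 against 8.23 ± 0.89, Rpl39 8.01 against 7.58 ± 0.14 and Rpsa 12.27 against 11.63 ± 0.55. Above the highest of the 4 lay 3 members, Rpl27a, Rpl39 and Rps20.

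**Figure D5:**
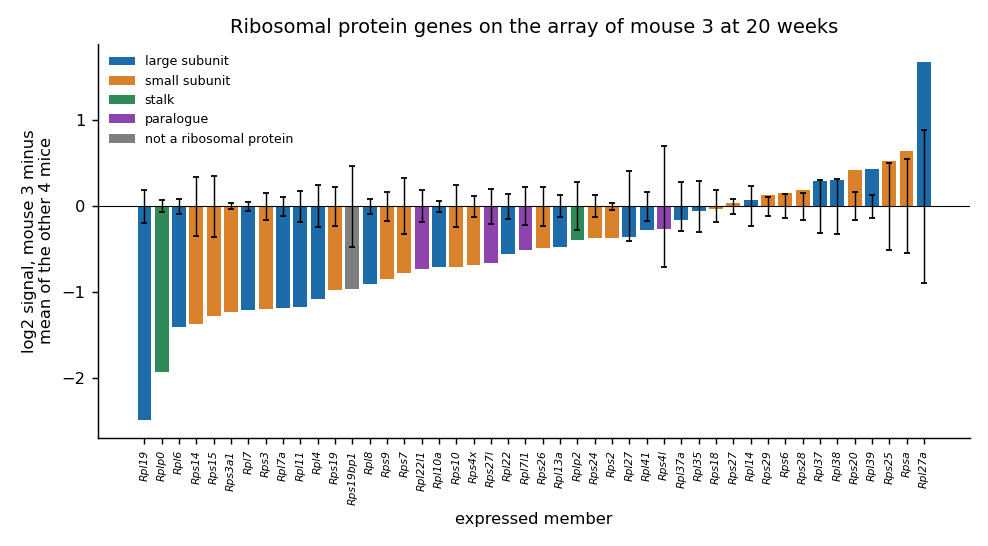
Log2 signal on the array of mouse 3 at 20 weeks minus the mean of the other 4 mice of that age (bars, vertical axis) for each of the 46 expressed members, coloured by subunit; black error bars around 0 are the SD of the other 4 mice. The bars run from -2.48 (Rpl19) to 1.68 (Rpl27a) and 34 of the 46 are negative.

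Other genes of the translation machinery were described by the same fit. In it 1.48%, 5.66%, 1.71% and 1.14% of all genes rose at 8, 12, 16 and 20 weeks, and 0.78%, 1.36%, 1.68% and 1.52% fell. At 12 weeks 80.6% of all calls were rises, and 56.1% after quantile normalization. Of 19 elongation factors and other genes with TOP messages, 0 were called at any age in limma, with list medians of 0.03, 0.18, 0.10 and -0.05 at the later ages in order. Of 23 initiation factors and kinases, Eif6, which keeps the large subunit from joining too early, rose by 1.19 at 12 weeks (limma adjusted p = 0.0388), and Eif2ak2, the interferon-induced kinase PKR, rose by 0.98 at 20 weeks (limma adjusted p = 0.0228). Of 50 ribosome assembly genes, the number that rose was 1 at 8 weeks, 6 at 12 weeks and 2 at 16 weeks, while 2 fell at 20 weeks. Tsr1, which acts in late assembly of the small subunit, rose at 8, 12 and 16 weeks by 0.60, 0.56 and 0.65 (limma adjusted p = 0.0391, 0.0279 and 0.0174). Nop58, a core protein of box C/D particles that modify ribosomal RNA, and Ltv1, a small subunit assembly factor, fell by 1.68 and 0.70 at 20 weeks (limma adjusted p = 0.0037 and 0.0137). The median of the assembly genes was 0.09, 0.12, 0.09 and -0.03. Fau, which encodes the small subunit protein eS30 and has another type of symbol, had values of 0.02, 0.41, 0.57 and 0.40 (limma adjusted p of 0.257 or more).

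The 76 mitochondrial ribosomal protein genes gave a comparison with ribosomes of another compartment. Their median fold change was 0.09 at 8 weeks, 0.35 at 12 weeks, 0.08 at 16 weeks and -0.10 at 20 weeks. At 12 weeks 72 of the 76 lay above their 4-week mean and 2 were called as rising (Mrpl54, 1.15, and Mrps18b, 1.15), while 30 of the 46 expressed cytosolic members lay above theirs. Of all expressed genes 62% lay above theirs at 12 weeks, with a median of 0.14, and 5.66% of all genes were called as rising. At 16 weeks 1 mitochondrial gene was called (Mrps9, 0.36), when 1.71% of all genes rose. At 8 and 20 weeks 0 of the 76 were called in limma. The difference between the sets was not tested, and the values of this set are not relative to the median of all expressed genes.

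The RNA of some cell type markers, mainly those of dividing cells and fibroblasts, differed between 4 weeks and the later ages in the same arrays. Whether cells of a type became fewer or carried less marker RNA cannot be told apart here. Of 5 dividing cell markers 4 fell at every later age, and their list mean was 5.283 to 6.046 at 4 weeks and 3.135 to 4.403 later. Of 6 fibroblast markers, 3 or 4 fell, with list means of 8.577 to 9.206 at 4 weeks and 6.265 to 7.991 later. The acinar list was expressed in full (7 of 7 genes), in keeping with the labelled tissue, and its genes lay below 4 weeks together: 7 of 7 at 8, 16 and 20 weeks and 6 of 7 at 12 weeks. The median of this list was -0.32, -0.24, -0.78 and -0.54, with 5 of 7 genes at an unadjusted p under 0.05 at 16 weeks. Of all 18194 genes, 2624 had such a p at that age. In limma 1 acinar gene, Smgc, was called as falling, at 16 and 20 weeks, when 1.68% and 1.52% of all genes fell. Of the 11 lymphocyte, 4 plasma cell, 1 granular duct, 4 muscle and 2 adipocyte markers, 0 were called in limma at any age. The part of these cells in the values of the members was not tested.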

How the data were processed

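RNA of 25 glands, 1 array per mouse, was measured at 5 ages, and groups were taken from the labels. The deposited values are log2 signals for 45101 probe sets, normalized by the authors (the study's methods name GCRMA and the submitters' processing notes name RMA; the version is not given in the sources used here, and which was used for the table is unknown). Array medians ranged from 3.175 to 3.641. Both methods share information across arrays and keep no depth, so the number of arrays limits the precision. Of 35890 annotated probe sets, 34958 have 1 symbol, 932 have several and were left out, and 9211 probe sets are not listed.

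Probe sets whose mean exceeded 3.266, the median of the table, counted as expressed. Each gene was given the average of its expressed probe sets, and a gene without any kept the average of them all. IDs ending in _a_at, _s_at or _x_at mark probes that may be shared with near-identical genes or pseudogenes; 71 of the 106 member probe sets have such an ID, so these members cannot be separated fully from their copies. limma (version 3.58.1, R 4.3.3) was fitted to all 25 arrays with age as factor, and p-values were adjusted over 18194 genes (Benjamini-Hochberg, 0.05); B-statistics used orthogonal polynomials of age with a prior of 0.01. The fit was tested on simulated data. The sources do not tie mice to litters, so the p-values take mice as independent.

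The members and lists were chosen with earlier results of these data known. Named members are those past a test, the paralogue pairs, members with known further roles and the 5 with the smallest F-test p; Rps9, Rps10, Rps18, Rps20 and Rpl19 were named after their values were seen. Alternatives were quantile normalization, array weights, the brightest probe set, probe sets without shared IDs, only expressed genes, a replicate block, and leaving out each array. Leaving out the 3 arrays of lowest correlation was chosen after seeing the data. Figures were drawn with Python 3.11.15 and matplotlib 3.10.9.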

Additional observations from a re-analysis of the deposited data

Results flagged for a closer look

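For each named member and age, the mouse farthest from the other 4 was looked at: in 18 of 135 groups of 5 mice its gap to the nearest mouse, divided by the range of the group, was above 0.71, the 95% critical value of Dixon's test. Chance alone marks about 1 group in 20. Of the 18, 6 were mouse 3 at 20 weeks, the array with the lowest correlation, and 6 were mouse 2 at 16 weeks.

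Mouse 3 at 20 weeks lay below the other 4 mice for Rplp0 (gap 0.917 of the range), Rpl7 (0.906), Rps3 (0.75) and Rpl11 (0.736), and above them for Rpl3l (0.795) and Rpl39l (0.786), both of which lay below the expressed level. Mouse 2 at 16 weeks lay below the others for Rps14 (0.896), Rps26 (0.895), Rpl11 (0.858) and Rpl7l1 (0.729), above them for Rpl3l (0.714), and below them in the median difference of the expressed members (0.774). At 16 weeks Rpl27a of mouse 5 read 8.55 where the others read 10.65 to 11.15 (0.808), and Rps27 of mouse 3 read 3.63 where the others read 3.22 to 3.31 (0.792). At 12 weeks mouse 3 was low for Rps25, 4.42 against 5.07 to 5.24 (0.792), and mouse 2 for Rpl39, 6.81 against 7.29 to 7.47 (0.733). Mouse 2 was high for Rplp0 at 8 weeks, 14.59 against 14.40 to 14.45 (0.74), and mouse 3 for Rps19 at 4 weeks, 11.84 against 11.36 to 11.43 (0.867).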

How the results depend on the processing

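The called rises of Rps6, Rpl7l1 and Rps25 kept their sign under the 32 alternatives. The median of the members ranged from -0.14 to -0.04 at 8 weeks, from -0.07 to 0.09 at 12 weeks, from -0.01 to 0.12 at 16 weeks and from -0.15 to 0.08 at 20 weeks, with the opposite sign in 0, 3, 2 and 6 of the 32; the 12-week median of 0.05 turned to -0.07 when arrays were quantile normalized, to -0.01 when they were weighted and to -0.02 when mouse 4 of 4 weeks was left out. The counts of members called moved, as did the shares of all genes. With array weights, which weigh down mouse 3 at 20 weeks most, the rises and falls numbered 0 and 6 (8 weeks), 5 and 11 (12 weeks), 6 and 1 (16 weeks) and 8 and 7 (20 weeks), 24 were called over the 5 ages, 4 had a B-statistic above 1.5 and 4 changed between neighbouring ages; of all genes 6.84%, 20.5%, 8.61% and 13.5% then rose, 6.1%, 34.4%, 11.3% and 22.4% fell, and 37.7% were called over the 5 ages. Without the 3 arrays of lowest correlation, they numbered 0 and 2, 5 and 3, 9 and 3, and 6 and 5 at these ages, with 8 over the 5 ages, 2 by B-statistic and 1 between neighbouring ages, while 9.38%, 19.6%, 11.9% and 12.9% of all genes rose, 7.13%, 23.7%, 21.4% and 19.1% fell and 25.8% were called over the 5 ages. After quantile normalization they numbered 0 and 2, 0 and 3, 1 and 1, and 1 and 1, with 6 over the 5 ages and 1 between neighbouring ages, while 1.54%, 3.51%, 2.74% and 1.96% of all genes rose, 1.76%, 2.75%, 3.4% and 3.83% fell and 7.55% were called over the 5 ages. By B-statistic 7.8%, 4.32% and 2.93% of all genes passed in these 3 settings in order. Between neighbouring ages 9.33%, 1.16% and 0.445% of all genes were called. The brightest probe set gave 1 rise at 12 weeks (6.83% of all genes) and 1 call over the 5 ages (4.96%). Probe sets without shared IDs gave 1 over the 5 ages (3.49%). Among expressed genes alone, 2 rose at 20 weeks (2.08% of these genes), 4 changed over the 5 ages (9.01%) and 0 passed by B-statistic (2.85%). Leaving out 1 array at a time, the rises numbered 0 to 3 at 12 weeks, 1 to 4 at 16 weeks and 1 to 4 at 20 weeks, the calls over the 5 ages 1 to 6 and those by B-statistic 1 to 2; the count fell to 0 at 12 weeks without mouse 4 of 4 or of 12 weeks, and reached 4 at 16 weeks without mouse 2 of that age. Across these fits with 1 array left out, 2.44% to 13.3% of all genes rose at 12 weeks. At 16 weeks 0.835% to 4.09% rose, and at 20 weeks 0.533% to 6.24%. Over the 5 ages 2.37% to 12.1% of all genes were called, and by B-statistic 1.25% to 2.79%. The causes were not tested. Replicate numbers do not pair the mice: deviations of same-numbered mice correlated by -0.582 to 0.571, 15 of 50 pairs over 0.1, and 5 of 25 samples matched their own number best. With a replicate block 2 members rose at 20 weeks, Rps6 and Rpl37a, where 0.945% of all genes rose, and no other call changed.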

Other observations

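Genes that control ribosome number or work beside the ribosome were read in the same limma fit. Of all genes, 5.66% rose at 12 weeks and 1.71% at 16 weeks, and 0.78% and 1.52% fell at 8 and 20 weeks. At 12 weeks 80.6% of all calls were rises, and 56.1% after quantile normalization. Of 21 genes of growth control, Eif4ebp1, the translation repressor that mTOR inactivates, fell by 0.63 at 8 weeks (limma adjusted p = 0.043) and by 1.06 at 20 weeks (limma adjusted p = 0.000649), with means of 11.08, 10.44, 10.74, 10.53 and 10.02 at the 5 ages. Rragc, a GTPase that brings mTOR to the lysosome, rose by 0.99 at 12 weeks (limma adjusted p = 0.0209). The means of Myc, which drives ribosomal protein genes, lay between 4.88 and 5.28. Of 18 genes of the signal recognition particle, the translocon and ribosome rescue, 4 rose at 12 weeks, namely Srp9 (0.66), Srp14 (0.76), Rpn1 (0.60) and Habp4 (0.25), and 0 were called at the other ages in limma. Of 9 genes often used as a reference, B2m rose by 1.10 at 12 weeks (limma adjusted p = 0.0361) and 1.16 at 16 weeks (limma adjusted p = 0.0423), and Actb had a value of -1.70 at 20 weeks (limma adjusted p = 0.312).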
